A study of Mus musculus with 18 samples.

Results

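The m5C sites of 8 mRNAs that encode the actomyosin machinery of nonmuscle cells were examined: the heavy chains Myh9, Myh14 and Myo18a, the light chains Myl6, Myl12a and Myl12b, and the tropomyosins Tpm1 and Tpm3. A site counted for a gene when it lay, on the same strand, in an exon of a curated RefSeq coding transcript of that gene in the mouse genome mm10. By this rule 199 of the 17998 distinct sites in mRNAs, and of the 25890 distinct sites in all, belonged to the 8 genes. Of the 8 genes, 7 had a site, and Myl12a had none in any library. The genes were selected with the number and position of sites in these libraries already known, so all numbers of sites, groups, regions and scores given here are descriptions without a test.

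RNA bisulfite sequencing converts unmethylated cytosines, so that cytosines that stay cytosines are read as 5-methylcytosine. The RNA was labelled as that of cultured cortical neurons from C57BL/6 mouse fetuses at day 18. The control group had no oxygen-glucose deprivation, and the OGD/R 1.5 h and OGD/R 3 h groups had 1.5 h or 3 h of oxygen-glucose deprivation followed by 24 h of reoxygenation in normal medium. Each group had 3 bisulfite libraries, and the 9 mock libraries, which had no bisulfite, were not analysed here. Earlier work on these data had found the coverage of the libraries of a group to differ by less than sampling noise. Coverage was not examined again here, and the sample titles call the libraries replicates. Whether they come from separate cultures is therefore uncertain. Each group was counted as 1 sample, and the 3 libraries were read as showing only the spread between sequencing libraries.

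The libraries listed between 5423 and 7772 sites, of which between 3501 and 5229 were in mRNAs. Whether the RNA carried sites in genes of other cell types was looked at with marker lists. None of 18 neuron markers (Tubb3, Map2, Rbfox3 and others) had a site in any library, and 1 of 8 glia markers had one. Of 20 intestinal epithelium markers 19 had a site, with 82 to 98 summed sites per control library, 56 to 60 in OGD/R 1.5 h and 186 to 202 in OGD/R 3 h. Of 10 smooth muscle markers 7 had one, with 11 to 18, 9 to 12 and 8 to 13 summed sites, and none of 10 striated muscle markers had one. Sites in 2 of 7 erythroid and 3 of 8 neutrophil markers were listed in the OGD/R 3 h libraries, 31 and 21 in each, and none in the other libraries; of 5 fibroblast markers 1 had a site. The intestinal list thus followed the same order of groups as the myosin and tropomyosin sites below, and its part in them was not tested. All mRNA sites also followed this order. The intestinal genes did not all move alike. Fcgbp had 12, 13 and 10 sites in control and 72, 69 and 66 in OGD/R 3 h. Vil1, Cdh17, Krt19, Krt20, Muc2, Tff3 and Cdx1 were also higher in every OGD/R 3 h library than in every control library. Fabp1, Lgals4 and Apoa4 were lower in this way, and the others of the list with a site overlapped. Over all genes with a site in these libraries, 18.5% were higher and 18.8% lower. A site list holds no sites for an mRNA that was not covered, so the amount of an mRNA and its methylation cannot be told apart in a number of sites, and neither can fewer cells of a type and less RNA per cell.

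Myh9 and Myh14 encode the heavy chains of nonmuscle myosin IIA and IIC, motors that form bipolar filaments and pull on actin. Each heavy chain has a globular motor head, a short neck with IQ motifs to which the light chains bind, and a long rod that pairs as a coiled coil. Myo18a encodes a relative of these heavy chains with little motor activity that joins their filaments. Myl6 is the essential light chain, and Myl12a and Myl12b are regulatory light chains whose phosphorylation switches the motor on. Tropomyosins are coiled-coil dimers that run along actin filaments and influence which myosins may bind there. Tpm1 and Tpm3 each give long and short isoforms from separate first exons.

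The sequences around the sites that the comparisons below turn on are shown first, as 21 nt of the mm10 strand of the gene with the listed cytosine in capitals. A pair of sites in the first exon of Myo18a was listed in all 9 libraries:
Myo18a exon 1, chr11:77777344-77777364, plus strand: acaaagatggCgggcggaagg
Myo18a exon 1, chr11:77777348-77777368, plus strand: agatggcgggCggaaggagaa

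These were followed by the 2 sites with the highest median score among those listed in all 3 libraries of a single group and nowhere else, given for the control group first and for OGD/R 3 h last. The first 3 letters of the window in Myh9 exon 27 lie in the intron before it:
Myh9 exon 39, control, chr15:77763245-77763265, minus strand: aggtggaggaCgagcggagga
Myh14 exon 25, control, chr7:44628573-44628593, minus strand: gaagcgacggCtggacgggga
Myo18a exon 1, OGD/R 1.5 h, chr11:77777405-77777425, plus strand: ggcagaactgCggagcctgga
Myh14 exon 27, OGD/R 1.5 h, chr7:44625470-44625490, minus strand: ggtgacagagCtgaagaaagc
Myh9 exon 27, OGD/R 3 h, chr15:77771252-77771272, minus strand: caggtcgaagCgtgagcagga
Tpm1 exon 5, OGD/R 3 h, chr9:67032794-67032814, minus strand: gcgggctgagCtctcagaagg

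The next 4 sites were chosen after their values were seen, because all 6 control and OGD/R 1.5 h libraries listed them and no OGD/R 3 h library did. The last 4 letters of the Tpm1 window lie in the intron after exon 1:
Myl6 exon 3, chr10:128492614-128492634, minus strand: tgctcaaggtCctagggaacc
Myo18a exon 30, chr11:77845760-77845780, plus strand: ggaagaggagCtggatgagca
Myh14 exon 25, chr7:44628568-44628588, minus strand: gacggctggaCggggagagct
Tpm1 exon 1, chr9:67049015-67049035, minus strand: aagaccggagCaagcaggtct

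A further 3 sites, also chosen after their values were seen, were listed in 7 or 8 of the 9 libraries:
Myh9 exon 31, chr15:77768989-77769009, minus strand: gtgtagggtgCctggagactg
Tpm1 exon 9, chr9:67023178-67023198, minus strand: tggggaaagaCgcgcagaaag
Tpm1 exon 1, chr9:67049043-67049063, minus strand: caagcggaggCtgataagaag

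Most of these windows were rich in purines. Over all 199 sites, 38.6% of the bases within 10 nt were G, 27.4% were A and 13.2% were T, beside 35.5%, 24.2% and 17.2% around all mRNA sites. At the base 2 nt before the site, A stood at 35.7% of the myosin and tropomyosin sites and at 25.1% of all mRNA sites. The CG context held 23.6% of the sites, CHG (H is A, C or T) 38.7% and CHH 37.7%, beside 22.4%, 38.0% and 39.6% of all mRNA sites. Of all cytosines in the 8 transcripts, 13.7% were CG, 29.8% CHG and 56.5% CHH. The letters CNGGG, read from the site on its own strand, were present at 6 of the 199 sites (3.02%), 5 of them in Myh14. They were present at 3.27% of all mRNA sites and at 2.40% of all cytosines in the 8 transcripts. The letters CTCCA were present at 2 sites (1.01%), beside 0.411% of all mRNA sites and 0.756% of those cytosines. Myo18a had the highest CG share of the genes with more than 10 sites, 7 of 13, and Myh14 the lowest, 8 of 46.

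Myh9 had 98 distinct sites over the 9 libraries, and only 6 of the 2598 genes with a site had more. Myh14 had 46, Tpm1 23, Myo18a 13, Tpm3 13, Myl6 4 and Myl12b 2, and the median gene with a site had 3. Sites were counted over all transcripts of a gene and set against the cytosines of the transcript with the longest coding sequence. Myh9 had 50.4 sites per 1000 cytosines, Myh14 26.4 and Myl6 22.6, and Myl12b (8.16) and Myo18a (6.42) were sparse. Tpm1 had 58.5 and Tpm3 25.1, but these 2 values are too high and were not ranked with the others. They include 5 Tpm1 sites and 6 Tpm3 sites in first exons of short isoforms, whose cytosines were not counted. Myo18a had 2026 cytosines and Myh9 1946, beside their 13 and 98 distinct sites.

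The number of sites in the 8 mRNAs per library was lowest in OGD/R 1.5 h and highest in OGD/R 3 h. Control libraries listed 43, 42 and 46 sites (mean 43.7 ± 2.08, SD, n = 3 libraries). OGD/R 1.5 h libraries listed 36, 33 and 37 (35.3 ± 2.08), and OGD/R 3 h libraries 63, 54 and 49 (55.3 ± 7.09). The 3 groups did not overlap. The log2 ratio to control was 0.34 for OGD/R 3 h and -0.31 for OGD/R 1.5 h, and OGD/R 3 h stood 0.65 above OGD/R 1.5 h. All mRNA sites moved in the same order, with log2 ratios of 0.31, -0.13 and 0.44. As a share of the mRNA sites of a library, the 8 genes made up 1.02% to 1.21% in control and 1.04% to 1.20% in OGD/R 3 h, which overlapped, and 0.931% to 1.03% in OGD/R 1.5 h, which overlapped with control in part. Of the sites with no other site within 10 nt, control libraries had 27, 32 and 37, OGD/R 1.5 h libraries 25, 27 and 33, and OGD/R 3 h libraries 41, 33 and 34. Every pair of groups overlapped in these, with a log2 ratio of 0.17 for OGD/R 3 h against control. Sites listed by all 3 libraries of a group numbered 20 in the control group, 18 in OGD/R 1.5 h and 13 in OGD/R 3 h, another order of the groups.

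Among the 7 genes with a site, only Myh9 had more sites in every OGD/R 3 h library than in every control library, and none had fewer. Over all genes with a site in these libraries, 18.5% were higher in this way and 18.8% were lower. In OGD/R 1.5 h, Myh9 and Tpm3 had fewer sites than in control in every library and none had more, beside 15.2% of all genes lower and 8.57% higher. Set against OGD/R 1.5 h, the OGD/R 3 h libraries all exceeded it at Myh9 and Tpm3 and fell below it at none, beside 19.8% of all genes higher and 13.5% lower. The comparisons share libraries, so the calls are not independent of each other.

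Myh9 held most of the difference between groups. It had 22, 20 and 23 sites in the control libraries, 11, 12 and 15 in OGD/R 1.5 h, and 35, 28 and 27 in OGD/R 3 h. The mean thus fell from 21.7 ± 1.53 in control to 12.7 ± 2.08 in OGD/R 1.5 h and was 30 ± 4.36 in OGD/R 3 h (SD, n = 3 libraries each), and no pair of groups overlapped. Without Myh9 the remaining genes had 21, 22 and 23 sites in the control group, 25, 21 and 22 in OGD/R 1.5 h, and 28, 26 and 22 in OGD/R 3 h, which overlapped in every comparison. As a share of all mRNA sites, Myh9 still fell in OGD/R 1.5 h (0.314% to 0.401%, against 0.483% to 0.607% in control), but its OGD/R 3 h share (0.574% to 0.669%) overlapped with control. Of the Myh9 sites with no other site within 10 nt, control libraries had 12, 14 and 18 and OGD/R 3 h libraries 21, 15 and 18, which also overlapped.

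**Figure D1:**
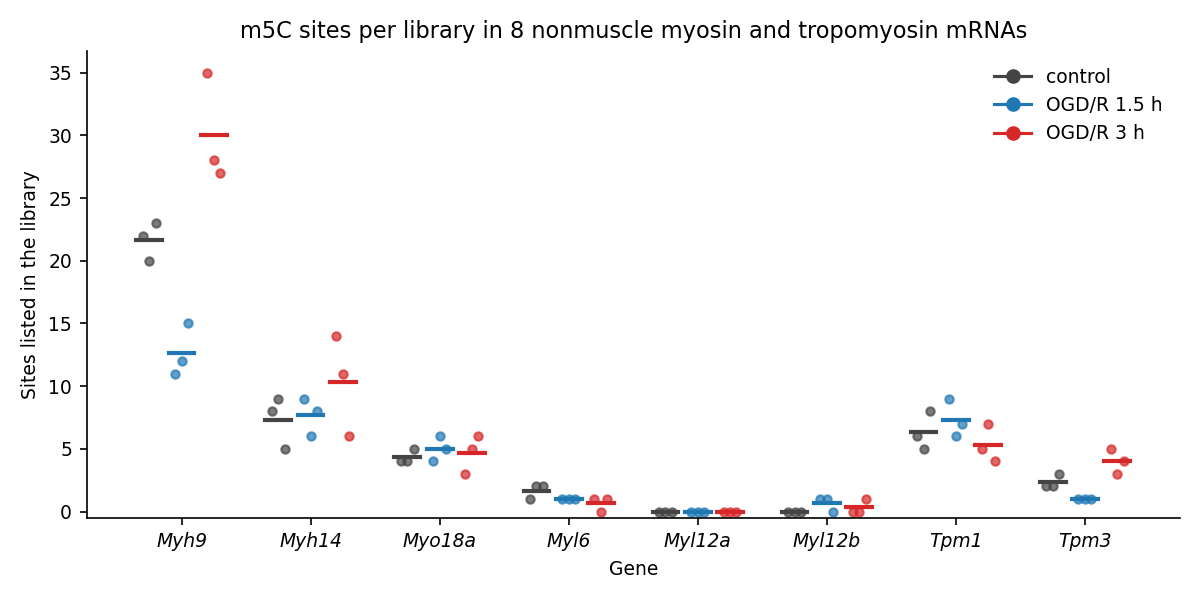
Number of listed sites in each library (y axis) for each of the 8 genes (x axis), with 1 point per library and a bar at the mean of 3 libraries. Myh9 sits at 20 to 23 in the control group, 11 to 15 in OGD/R 1.5 h and 27 to 35 in OGD/R 3 h, and Myl12a is at 0 throughout.

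Myh14, another class II heavy chain, had 8, 9 and 5 sites in the control group, 9, 6 and 8 in OGD/R 1.5 h, and 14, 11 and 6 in OGD/R 3 h. The means were 7.33 ± 2.08, 7.67 ± 1.53 and 10.3 ± 4.04 (SD, n = 3 libraries each), and the libraries of all 3 groups overlapped. The ratio of the OGD/R 3 h mean to the control mean was 1.41 for Myh14 and 1.38 for Myh9, and that of OGD/R 1.5 h to control was 1.05 and 0.585. Whether the genes differ in their change was not tested. Myo18a had 4, 4 and 5 sites in the control group, 4, 6 and 5 in OGD/R 1.5 h and 3, 5 and 6 in OGD/R 3 h.

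Along both class II heavy chains the sites were denser behind the neck than in the head. The first IQ motif of the translated coding sequence begins at codon 786 of 1960 in Myh9, 847 of 2033 in Myh14 and 1239 of 2083 in Myo18a. In Myh14, 4 distinct sites lay before the IQ motif and 42 from it on, which is 5.22 and 48.8 sites per 1000 coding cytosines. None of the 4 was listed in more than 1 library, whereas 18 of the 42 were. In Myh9, 21 sites lay before the motif and 75 from it on, 33.1 and 89.6 per 1000 coding cytosines. Myo18a had 6 and 7, or 5.63 and 11.9 per 1000. Its sites before the motif all lay in exon 1, and 5 of those 6 were in the start codon region, defined as 100 nt on either side of the start codon. Of the 21 Myh9 sites before the motif, exons 2 and 3 held 9 each, with median scores of 0 to 14. The 75 Myh9 sites from the motif on had median scores of 44 or more.

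In Myh9 the groups stood apart in the number of sites from the IQ motif on. There, control libraries had 15, 15 and 16 sites, OGD/R 1.5 h libraries 9, 8 and 10, and OGD/R 3 h libraries 25, 18 and 21, with no overlap. These numbers were not set against the mRNA sites of a library. As such a share, the sites of the whole of Myh9 overlapped between control and OGD/R 3 h. Before the motif the numbers were 7, 5 and 7, then 2, 4 and 5, then 9, 9 and 4, and every pair of groups overlapped. Most of these were the sites of exons 2 and 3 with low median scores. In Myh14 the stretch from the IQ motif on had 8, 8 and 5 sites in the control group, 9, 6 and 7 in OGD/R 1.5 h, and 14, 9 and 6 in OGD/R 3 h. Whether the 2 stretches of Myh9 differ in their change was not tested.

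**Figure D2:**
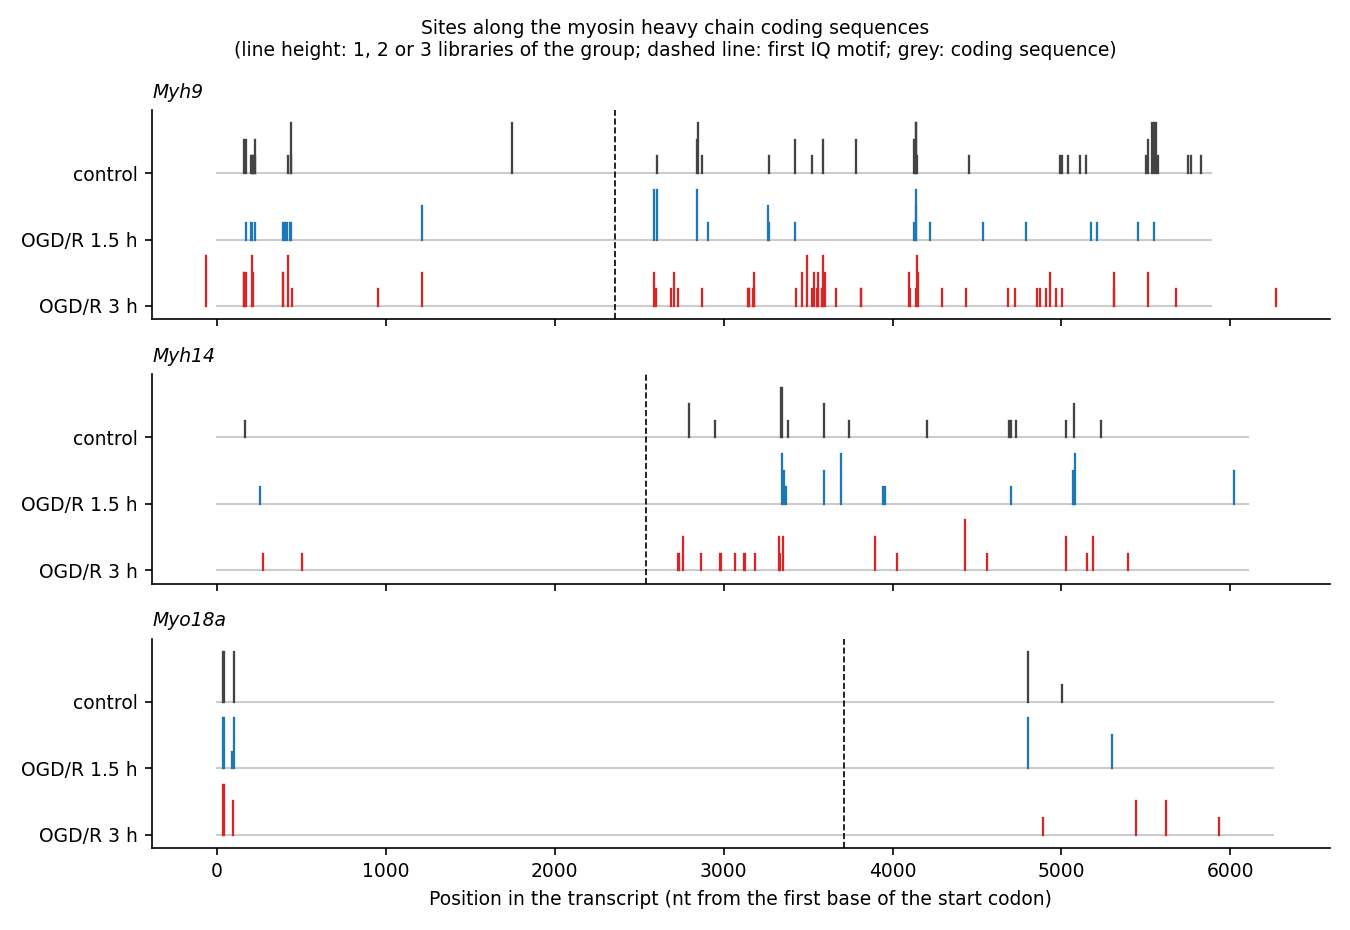
Sites of Myh9, Myh14 and Myo18a by distance from the start codon in nt (x axis), with 1 row per group. Line height gives the number of libraries of the group that listed the site (1, 2 or 3), the grey line is the coding sequence and the dashed line the first IQ motif; 42 of 46 Myh14 sites stand to the right of it.

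Single exons of the Myh9 rod differed in which group listed their sites. Exon 27 (chr15:77771125-77771269, 145 nt) had 10 distinct sites, the most of any exon in the 8 genes. Its number of sites was 0, 2 and 1 in the control group, 0 in all OGD/R 1.5 h libraries, and 6, 7 and 4 in OGD/R 3 h. All 10 were listed in OGD/R 3 h, and 2 of them in control also. Exon 39 (chr15:77763222-77763330, 109 nt) ran the other way, with 5, 5 and 3 sites in the control group, 0, 0 and 1 in OGD/R 1.5 h and 1, 0 and 1 in OGD/R 3 h. Its site printed above had scores of 806, 534 and 1000 in control, the last at the upper limit of the score. Exon 25 (chr15:77773272-77773443) had 8 sites, with 0, 1 and 0 in the control group, 0, 1 and 2 in OGD/R 1.5 h, and 2, 2 and 3 in OGD/R 3 h. These exons were picked for their numbers of sites.

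Myh9 and Myh14 encode related proteins, with 64.2% of residues and 67.7% of nt identical over 1957 aligned codons. At 974 aligned coding positions both mRNAs have a cytosine. Myh9 had a site at 51 of these and Myh14 at 29, and both had one at 3, at Myh9 codons 1051, 1657 and 1738. Tpm1 and Tpm3 have a cytosine in both mRNAs at 101 aligned coding positions, with a Tpm1 site at 12, a Tpm3 site at 3 and both at 2.

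The essential light chain Myl6 had 1, 2 and 2 sites in the control group, 1 in each OGD/R 1.5 h library, and 1, 0 and 1 in OGD/R 3 h. Its site in exon 3 at chromosome 10 position 128492624 was listed in all 6 control and OGD/R 1.5 h libraries, with scores of 76, 129 and 194 and then 64, 435 and 137. No OGD/R 3 h library listed it, while another site in the same exon, at position 128492639, was listed once in control (score 225) and once in OGD/R 3 h (86). The converted 31 nt around the latter site occurs at 6 other places in the genome, so that this site is uncertain, and 2 of the 4 Myl6 sites had such copies.

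The regulatory light chain Myl12b had 2 sites, both in exon 2. One, at chromosome 17 position 70977072, was listed in 2 OGD/R 1.5 h libraries with scores of 4 and 0, and the other, at position 70977064, in 1 OGD/R 3 h library with a score of 34. The coding sequences of Myl12a and Myl12b are identical at 96.5% of 519 nt, and at 97.1% once C is read as T. The converted sequence of 31 nt around each Myl12b site also occurs elsewhere in the genome, so these sites are uncertain, as is the absence of sites in Myl12a.

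Tpm1 had 6, 5 and 8 sites in the control group, 9, 6 and 7 in OGD/R 1.5 h, and 5, 7 and 4 in OGD/R 3 h, and the groups overlapped. Of its sites, 6 were listed in control alone, 7 in OGD/R 1.5 h alone and 5 in OGD/R 3 h alone. The other 5 of 23 (21.7%) were listed in more than 1 group, beside 19.2% of all mRNA sites. The first exon of the long isoforms (chr9:67049019-67049213) had 7 distinct sites, with 3, 1 and 2 in the control group, 5, 4 and 4 in OGD/R 1.5 h and 1 in each OGD/R 3 h library. Scores in this exon were low, from 2 to 53. In exon 9, a site at position 67023188, in the 3′ UTR of the isoforms that hold it, had scores of 173, 641 and 772 in the control group, 117, 236 and 169 in OGD/R 1.5 h, and 62 and 110 in 2 OGD/R 3 h libraries.

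Tpm3 had 2, 2 and 3 sites in the control group, 1 in each OGD/R 1.5 h library, and 5, 3 and 4 in OGD/R 3 h (means 2.33 ± 0.577, 1 ± 0 and 4 ± 1, SD, n = 3 libraries each). The first exon of the long Tpm3 isoforms (chr3:90072651-90072850) had no site, and that of the short isoforms (chr3:90079521-90079863) had 6. None of the 13 Tpm3 sites was listed in more than 1 group, beside the 19.2% of all mRNA sites given above. In the short first exon, control libraries listed sites at positions 90079765 and 90079828, and all OGD/R 3 h libraries listed sites at 90079815 and 90079824. Scores at these 4 sites ran from 1 to 15. The converted 31 nt around 9 of the 13 Tpm3 sites occurs elsewhere in the genome, so these sites are uncertain. Without such sites Tpm3 had 1, 1 and 1 in the control group, 1, 0 and 0 in OGD/R 1.5 h and 2, 2 and 2 in OGD/R 3 h. Control and OGD/R 1.5 h then overlapped, while the log2 ratio of OGD/R 1.5 h to control went from -1.22 to -1.58. With scores of at least 10, both groups had 0, 1 and 1, and OGD/R 3 h had 3, 2 and 3. With only sites that had no neighbour within 10 nt, OGD/R 3 h had 3, 1 and 0, which overlapped with OGD/R 1.5 h.

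A larger share of the sites lay in the coding sequence in the 8 mRNAs than over all mRNA sites. Of the 199 sites, 85.4% were in the CDS, 10.1% in the start codon region, 1.51% in the stop codon region, 3.02% in the 3′ UTR and none in the 5′ UTR. Over all mRNA sites these shares were 55.6%, 24.2%, 5.98%, 7.0% and 7.30%. Of the heavy chain sites, 95 of 98 in Myh9 and 45 of 46 in Myh14 were in the CDS. The start codon region held 8 of 23 Tpm1 sites, 6 of 13 Tpm3 sites and 5 of 13 Myo18a sites. Of 191 sites within a coding sequence, 40.8% were at the first codon position, 23.6% at the second and 35.6% at the third, beside 35.7%, 25.7% and 38.6% of the coding cytosines of the same transcripts.

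The CDS and start codon shares overlapped between control and OGD/R 3 h, and OGD/R 1.5 h stood apart. The CDS held 81.4% to 85.7% of the sites of a control library, 72.2% to 73.0% in OGD/R 1.5 h, and 81.5% to 85.7% in OGD/R 3 h. The start codon region held 11.9% to 16.3%, 21.2% to 22.2% and 9.52% to 14.3%. Over all mRNA sites OGD/R 1.5 h differed from control the other way, with a CDS share of 55.4% to 59.5% beside 48.6% to 53.2%, and a start codon share of 21.6% to 24.8% beside 26.1% to 29.9%. OGD/R 3 h had 43.3% to 48.7% and 29.0% to 33.6% there. The OGD/R 1.5 h libraries also had the fewest Myh9 sites.

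**Figure D3:**
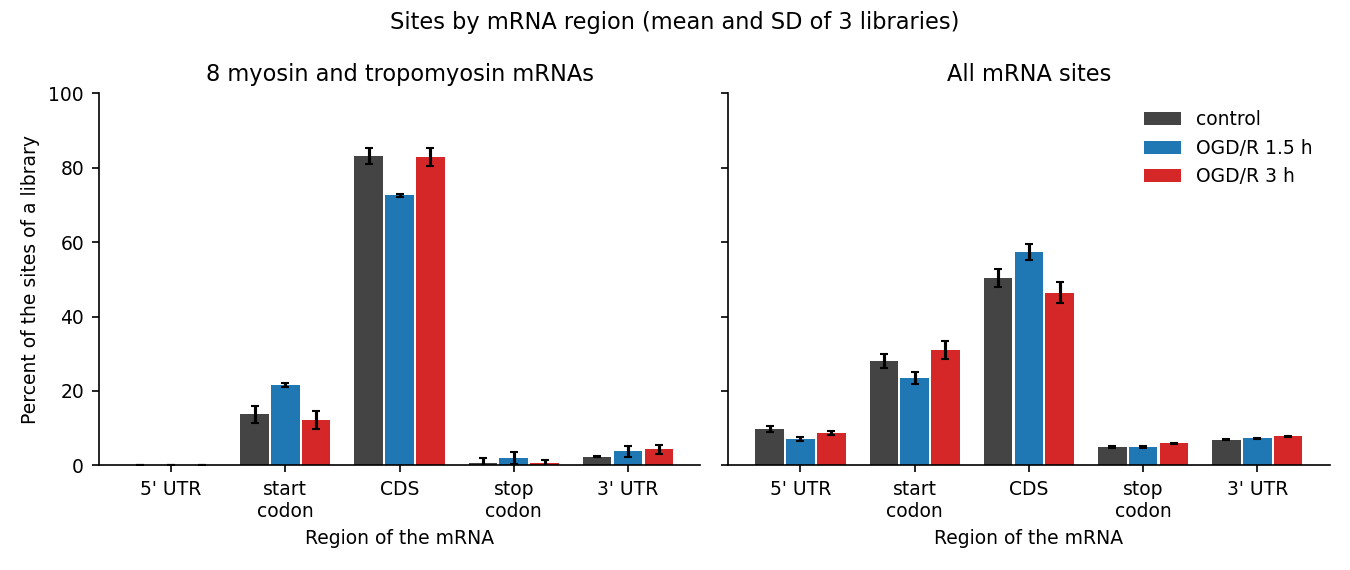
Percent of the sites of a library in each mRNA region (y axis), for the 8 genes (left) and all mRNA sites (right); bars are means of 3 libraries and error bars their SD. The CDS bars of the 8 genes lie between 72.6% and 83.2%, and those of all mRNA sites are lower in each group.

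Few sites were common to the 3 groups. Of the 199 sites, 40 (20.1%) were listed in control alone, 34 (17.1%) in OGD/R 1.5 h alone and 85 (42.7%) in OGD/R 3 h alone, beside 23.4%, 24.1% and 33.3% of all mRNA sites. Control and OGD/R 1.5 h shared 17 sites without OGD/R 3 h, control and OGD/R 3 h shared 13, and OGD/R 1.5 h and OGD/R 3 h shared 3. These were 8.54%, 6.53% and 1.51% of the 199 sites, beside 6.66%, 4.12% and 4.75% of all mRNA sites. All 3 groups listed 7 sites, 3.52% beside 3.62% of all mRNA sites: 3 in Myh9, 2 in Myo18a and 2 in Tpm1. Taken over its 3 libraries, control listed 77 sites, OGD/R 1.5 h 61 and OGD/R 3 h 108. Of these, 24 were in both control and OGD/R 1.5 h (31.2% of the control sites and 39.3% of the others) and 20 in both control and OGD/R 3 h (26.0% of the control sites and 18.5% of the others). OGD/R 1.5 h and OGD/R 3 h had 10 in common, 16.4% and 9.26% of their sites. Over all mRNA sites the same shares were 27.2% and 26.2% for control and OGD/R 1.5 h, 20.5% and 16.9% for control and OGD/R 3 h, and 21.4% and 18.3% for the third pair.

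Recurrence within a group was lowest in OGD/R 3 h. All 3 libraries of the group listed 20 of 77 control sites (26.0%), 18 of 61 OGD/R 1.5 h sites (29.5%) and 13 of 108 OGD/R 3 h sites (12.04%). Over all mRNA sites the shares were 26.6%, 18.0% and 30.8%, so the groups stood in another order there. Myh9 had 8 such sites in the control group, 4 in OGD/R 1.5 h and 6 in OGD/R 3 h, although its total was highest in OGD/R 3 h. Over the 9 libraries, 106 of the 199 sites (53.3%) were listed by 1 library alone, beside 49.0% of all mRNA sites.

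Recurrent sites fell into a few patterns. In Myh9 exon 31, a site at chromosome 15 position 77768999 had scores of 440, 146 and 282 in control and 67, 268 and 139 in OGD/R 1.5 h, and was listed by 1 OGD/R 3 h library with 301. In exon 23, a site at 77774691 was listed by 2 control libraries (223 and 197) and all OGD/R 1.5 h libraries (58, 202 and 197) and by no OGD/R 3 h library. In exon 27, a site at 77771165 was listed by 2 control libraries (262 and 93) and all OGD/R 3 h libraries (242, 129 and 150) and by no OGD/R 1.5 h library. In exon 21, a site at 77775846 had scores of 76, 79 and 136 in OGD/R 1.5 h and 223 and 89 in 2 OGD/R 3 h libraries, and no control library listed it.

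The 4 sites listed by all control and OGD/R 1.5 h libraries and by no OGD/R 3 h library were in 4 different genes. The Myh14 site in exon 25 had scores of 154, 147 and 244 in control and 235, 488 and 384 in OGD/R 1.5 h. The Myo18a site in exon 30 had 76, 137 and 246 and then 94, 195 and 87. The Tpm1 site in exon 1 had only 5, 18 and 16 and then 8, 5 and 17, and the Myl6 site is given above. Of all mRNA sites, 0.828% had this pattern, and of the 199 sites 2.01% did.

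**Figure D4:**
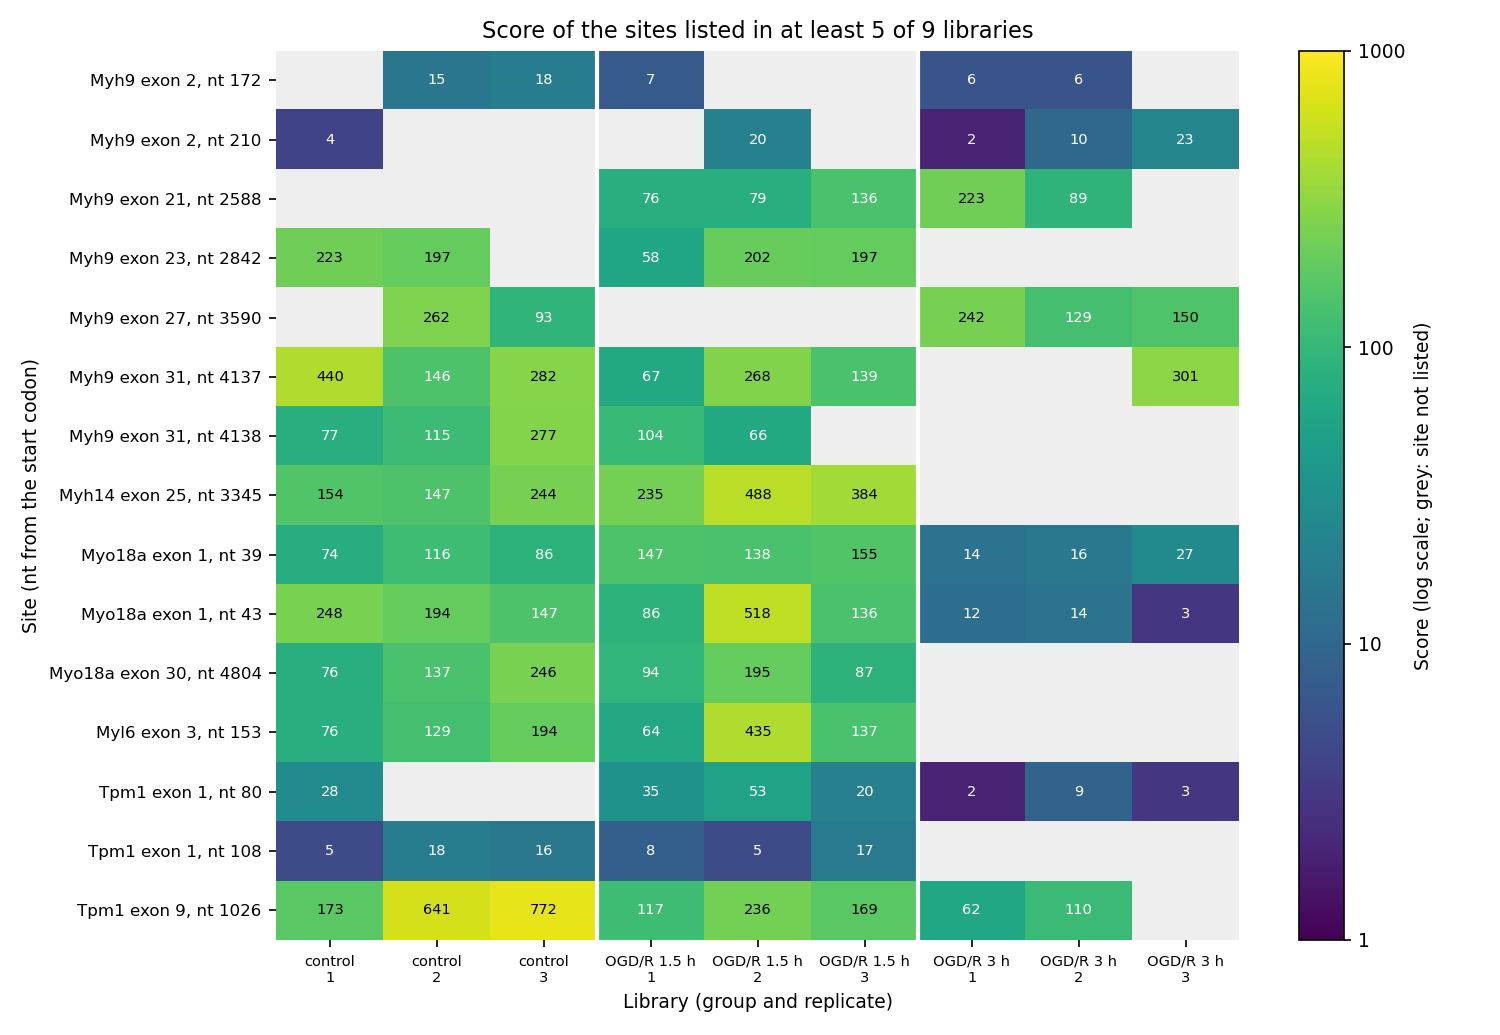
Score of each site listed in at least 5 of the 9 libraries (rows, named by gene, exon and nt from the start codon) in each library (columns); colour is on a log scale and grey means that the library did not list the site. Both Myo18a exon 1 sites are filled in all 9 columns, with the lowest scores in the 3 OGD/R 3 h libraries.

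Only the pair of sites in Myo18a exon 1, 39 and 43 nt into the coding sequence, was listed by all 9 libraries. At the first of these, position 77777354, scores were 74, 116 and 86 in the control group, 147, 138 and 155 in OGD/R 1.5 h, and 14, 16 and 27 in OGD/R 3 h. OGD/R 3 h was below both other groups and OGD/R 1.5 h above control, without overlap. At the second, position 77777358, they were 248, 194 and 147, then 86, 518 and 136, then 12, 14 and 3, and OGD/R 3 h was again below both. On the log2(score + 1) scale, the mean of OGD/R 3 h minus that of control was -2.25 at the first site and -4.39 at the second. Of the 250 mRNA sites listed in all 6 of these libraries, 15.6% were lower in OGD/R 3 h without overlap and 10.8% higher. Of the 294 sites listed in all control and OGD/R 1.5 h libraries, 9.18% were higher in OGD/R 1.5 h. Of the 200 listed in all OGD/R 1.5 h and OGD/R 3 h libraries, 15.5% were lower in OGD/R 3 h, the pair in Myo18a and the Tpm1 exon 1 site at position 67049053 among them. The latter had 35, 53 and 20 in OGD/R 1.5 h and 2, 9 and 3 in OGD/R 3 h. No Myh9 or Myh14 site was listed in all 6 libraries of a pair of groups that included OGD/R 3 h.

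The score is a whole number up to 1000 that the sources used here do not define. It was read as the call score of the calling software, which gives neither the coverage nor the methylation level of a site. Scores in the 8 mRNAs were high. The library medians were 94, 142.5 and 94.5 in the control group, 75, 79 and 69 in OGD/R 1.5 h, and 65, 65.5 and 51 in OGD/R 3 h. The medians over all mRNA sites of a library were 9 to 10, 7 and 11 to 12 in these groups. OGD/R 3 h thus had the lowest medians in the 8 mRNAs and the highest over all mRNA sites. In the CDS the median of all listed scores was 82.5 in the 8 mRNAs and 7 over all mRNA sites, and in the start codon region it was 14 and 7. By gene, Myh14 ran from 101.5 to 176 over the medians of the control libraries, from 105 to 121.5 in OGD/R 1.5 h and from 51.5 to 63.5 in OGD/R 3 h. Myh9 ran from 93.5 to 144, 57 to 87 and 51 to 67.5. Tpm1 in OGD/R 1.5 h (12 to 20.5) was low, and 8 of its 10 sites there were in the first exons.

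**Figure D5:**
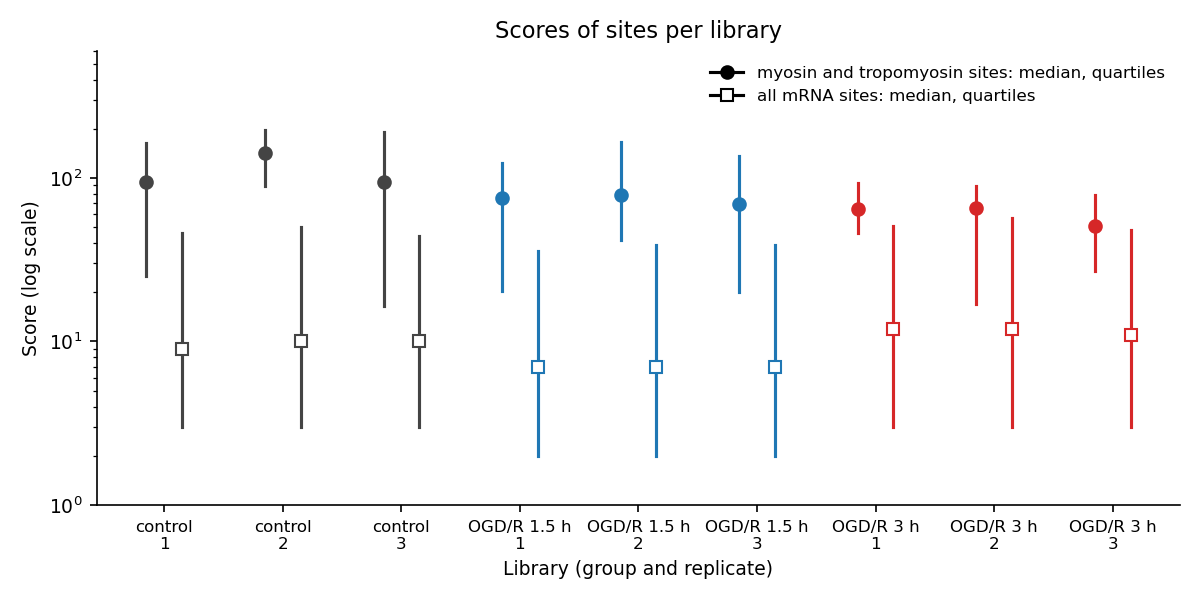
Median (points) and quartiles (lines) of the score in each library on a log axis, for sites in the 8 genes (filled circles) and all mRNA sites (open squares). The medians of the 8 genes lie between 51 and 142.5, and those of all mRNA sites between 7 and 12.

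In each group, the share of sites with a close neighbour was lower in the 8 mRNAs than over all mRNA sites. Another site of the same library lay within 10 nt of 19.6% to 37.2% of them in the control group, 10.8% to 30.6% in OGD/R 1.5 h and 30.6% to 38.9% in OGD/R 3 h. Over all mRNA sites these shares were 46.3% to 47.0%, 39.0% to 40.2% and 50.3% to 51.7%.

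The other genes of the actomyosin pathway were read from lists of related genes. Of 6 other conventional myosins and light chains, 3 had a site. Of these, Myl9 (a regulatory light chain) had 1, 2 and 2 in control and 0 elsewhere, so both OGD/R groups were lower. None of the list was higher in any comparison. Myh11, the smooth muscle heavy chain, had 6, 6 and 2, then 6, 7 and 6, then 3, 7 and 7. Of 6 other tropomyosins and tropomodulins, 3 had a site and all overlapped between groups. Over all genes with a site, 8.57% to 19.8% were higher and 13.5% to 18.8% lower in the 3 comparisons. Lists this short cannot be set apart from those shares. Myh10, the third class II nonmuscle heavy chain, had a single site, listed in 1 control and 1 OGD/R 1.5 h library.

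Of the enzymes that act on the myosin light chains, 3 are given here, chosen after their values were seen. Mylk, the myosin light chain kinase, had 3, 3 and 4 sites in the control group, 2, 1 and 1 in OGD/R 1.5 h and 0, 0 and 1 in OGD/R 3 h. Ppp1r12a, the subunit that directs the phosphatase to myosin, had 17, 15 and 12, then 7, 12 and 11, then 7, 2 and 5. Ppp1cb, the catalytic subunit, was highest in OGD/R 3 h with 7, 8 and 7, beside 0, 0 and 1 in control.

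Of 15 actin filament partners, 9 had a site in control or OGD/R 3 h, with 2 higher and 1 lower in OGD/R 3 h, beside 18.5% of all genes higher and 18.8% lower. The actin crosslinker Flna (1, 1 and 0 in the control group, 6, 5 and 7 in OGD/R 3 h) and the severing protein Cfl1 (1, 1 and 1, then 3, 2 and 4) were higher, and the tropomyosin partner Cald1 (3, 3 and 2, then 0) was lower. Of 16 unconventional myosins, 7 had a site in control or OGD/R 3 h, with 1 higher and 2 lower, beside the same shares of all genes. Myo1a, the myosin of intestinal microvilli, had 24, 21 and 21 sites in control and 32, 28 and 29 in OGD/R 3 h, whereas Myo10 had 2, 3 and 3 in control and 0 elsewhere. In OGD/R 1.5 h against control, 1 of 10 actin filament partners was higher and 3 lower, and 0 of 9 unconventional myosins were higher and 2 lower, beside 8.57% of all genes higher and 15.2% lower.

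The summed number of sites in the 8 mRNAs over the 9 libraries was most like that of H1f3 (Pearson's r = 0.93), Nsd1 (0.92) and Mxd1 (0.92), among genes with at least 20 distinct sites. The 9 points are 3 groups of libraries, each counted here as 1 sample, so this describes the order of the groups. H1f3, a linker histone, had 7, 7 and 8 sites in the control group, 1, 2 and 1 in OGD/R 1.5 h and 16, 16 and 15 in OGD/R 3 h.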

How the data were processed

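RNA from cultures labelled as mouse cortical neurons was depleted of rRNA, converted with bisulfite and sequenced by the authors as paired reads of stranded libraries. Per the labels and the methods of the study, base calls were made with CASAVA 1.8, adapters were trimmed with Cutadapt 1.9.3, bisulfite reads were aligned to mm10 with meRanGh and methylated cytosines were called with meRanCall in each library. The deposited files list, for each of 9 libraries, the called positions with a score, which was used as deposited. The sources used here do not define this score. It was read as the call score of meRanCall, and no normalisation for depth by the authors is stated. Read totals, coverage and levels were not used here, so the depth behind a site is unknown and no level, floor or confidence interval was derived. The mock libraries were not analysed here.

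Positions were checked against mm10, where all 25890 sites fell on a cytosine of their strand. Sites were placed with Python 3.11.15 and numpy 2.4.6 on curated RefSeq coding transcripts of 21000 genes, on the transcript with the longest coding sequence that holds the site. Start and stop codon regions reached 100 nt to either side of the codon. Windows of 31 and 61 nt around each site were searched for copies in both strands of the C-to-T converted genome (numba 0.67.0). Translated coding sequences were aligned globally with Biopython 1.88 and figures drawn with matplotlib 3.10.9. A gene was called higher or lower when every library of a group lay above or below every library of the other. Groups were taken from the sample titles. As earlier work had found the libraries of a group to differ in coverage by less than sampling noise, no test between groups was run. The placing of sites and the calls were tested on simulated data.

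The genes and lists were chosen with earlier results of these data known. All 8 genes were named. Sequences were printed for sites listed in all 9 libraries and for the 2 sites of highest median score listed in all 3 libraries of 1 group alone, and the others were picked after their values were seen. The 3 genes most alike were those with the highest Pearson's r among 189 genes with at least 20 distinct sites. One further list of related genes is not reported here.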

Additional observations from a re-analysis of the deposited data

How the results depend on the processing

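No paired analysis was possible because each group stands for a single sample here, so that no result comes from a test. Leaving out each library in turn moved the number of sites in the 8 mRNAs, the shares of regions and contexts, and the median scores by less than the spread between libraries. For OGD/R 3 h against control, the log2 ratio of sites per library was 0.025 as a share of all mRNA sites. For sites listed in all 3 libraries of a group it was -0.62, which turned its direction, and -0.42 for Myh9 alone. For sites of the 8 mRNAs without a neighbour within 10 nt it was 0.17, where the groups overlapped. For OGD/R 1.5 h against control, it was -0.18 both for sites without a neighbour within 10 nt and as a share, -0.15 for sites listed in all 3 libraries, and 0.043 without Myh9. For OGD/R 3 h against OGD/R 1.5 h, it was 0.35 without neighbouring sites, 0.20 as a share, 0.16 without Myh9 and -0.47 for sites listed in all 3 libraries. The cause of these turns was not tested.

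As a mean over the 9 libraries, the CDS share of 79.6% was 82.0% with scores of at least 10, 61.7% for sites listed in all 3 libraries of a group, 90.1% with 50 nt around the codons and 83.0% on the transcript with the longest coding sequence alone. The start codon share of 15.9% was 12.6%, 34.8%, 5.70% and 12.2% under the same settings. For sites listed in all 3 libraries of a group, the CG share was 41.5% in place of 27.2% and the CHG share 30.7% in place of 40.6%. The 7 sites common to the groups became 3 when listed in at least 2 libraries of each group and 2 when listed in all 3. The mean of the library medians of the score was 110.3 in control, 74.3 in OGD/R 1.5 h and 60.5 in OGD/R 3 h. Means in place of medians gave 159.0 for control and 106.3 for OGD/R 1.5 h, and sites listed in all 9 libraries gave 144.2, 196.7 and 14.3 in the 3 groups.

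The depth behind each site is unknown. For a site that a library does not list, absence of methylation, low coverage and absence of the mRNA cannot be told apart.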
